A study of Mus musculus with 18 samples.

Results

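The late cornified envelope genes Lce1 and Lce3 were followed across intact, tape-stripped and extract-fed mouse skin. The set held 10 named genes, 9 of the Lce1 group (Lce1a1, Lce1b, Lce1c, Lce1f, Lce1g, Lce1h, Lce1i, Lce1l and Lce1m) and 1 of the Lce3 group (Lce3f). Every probe set whose annotated symbol was exactly one of these names was taken, which gave 12 probe sets of the 45037 tested, since Lce1a1 and Lce1f have 2 each. All 12 varied over the arrays, the narrowest by 1.61 on the log2 scale, whereas 73.5% of the tested probe sets ranged by less than 0.01 and carry no information. Dorsal skin of male albino hairless HR-1 mice, 6 weeks old by the labels, was measured on 18 Affymetrix mouse arrays, 6 biological replicates in each of 3 groups. Mice labelled NT were not stripped. Mice labelled TS had cellophane tape applied to and removed from the left back in 3 sessions a week over 4 weeks, stopped once water loss through the skin read 70 to 100 g/m2/h. Mice labelled WB were stripped alike and were given an oral extract of winged bean, a tropical legume, at 200 mg/kg a day in 0.3% carboxymethylcellulose, 5 times weekly over 5 weeks, from 1 week before stripping. The labels do not say whether NT and TS mice received the vehicle. HR-1 mice largely lack hair, so their skin is a limited model of haired skin.

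Lce proteins are small proteins rich in glycine, serine and cysteine that transglutaminases cross-link into the cornified envelope, the protein shell of dead surface keratinocytes. Their genes lie together in the epidermal differentiation complex and are switched on late in keratinocyte differentiation. In human skin the LCE1 group is known from normal epidermis and the LCE3 group from injured and psoriatic epidermis. In RefSeq (GRCm38.p6) the mouse genes follow each other on chromosome 3 from Lce1a1 to Lce1l, then come the Lce3 genes, ending with Lce3f, and Lce1m lies beyond Lce3f. Among family genes outside the set, Lce1a2, Lce1d, Lce3a, Lce3b and Lce3c have 1 probe set each and are given for comparison.

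RefSeq promoter sequences were matched for 9 of the 10 genes. The 120 bases before the annotated start are shown for genes that moved in the different ways described later. They are those of Lce1b (chr3:92656927-92657046, minus strand), Lce1h (chr3:92765066-92765185, minus strand), Lce1i (chr3:92778900-92779019, minus strand), Lce1l (chr3:92851287-92851406, minus strand), Lce1m (chr3:93019062-93019181, minus strand) and Lce3f (chr3:92992097-92992216, plus strand). Capitals mark the stretch ACTGTNTCAC and the TATA-like box ATAAAA.
Lce1b: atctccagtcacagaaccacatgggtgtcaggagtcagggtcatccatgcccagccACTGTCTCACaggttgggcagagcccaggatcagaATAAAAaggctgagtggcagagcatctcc
Lce1h: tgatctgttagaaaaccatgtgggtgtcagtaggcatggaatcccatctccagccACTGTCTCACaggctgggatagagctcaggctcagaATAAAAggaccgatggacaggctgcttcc
Lce1i: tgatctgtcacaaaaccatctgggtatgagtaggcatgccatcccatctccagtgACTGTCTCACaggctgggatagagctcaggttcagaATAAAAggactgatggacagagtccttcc
Lce1l: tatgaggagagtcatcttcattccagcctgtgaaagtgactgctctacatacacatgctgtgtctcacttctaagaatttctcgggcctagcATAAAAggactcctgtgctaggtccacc
Lce1m: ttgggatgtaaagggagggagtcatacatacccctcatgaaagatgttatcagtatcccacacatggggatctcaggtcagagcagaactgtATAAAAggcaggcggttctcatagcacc
Lce3f: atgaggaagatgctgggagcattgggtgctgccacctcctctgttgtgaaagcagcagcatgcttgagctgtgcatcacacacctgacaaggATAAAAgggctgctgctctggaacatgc
Over the 250 bases before the start, Lce1a1, Lce1b, Lce1c, Lce1g, Lce1h and Lce1i were 68.8% to 85.6% identical to one another after pairwise alignment. Lce1l was 60% to 63.2% identical to these 6 genes, Lce1m 62% to 63.6% and Lce3f 60.4% to 62%. Lce3f was 66.4% to 70.4% identical to Lce3a, Lce3b and Lce3c.

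The stretch ACTGTNTCAC was found as the longest run, with 1 free base inside, that those 6 Lce1 genes share, so its presence in them is fixed by the search. In windows from 250 bases before to 50 after the start it was also present for Lce1a2 and Lce1d, which the search did not use. It was in 78 of 27025 gene promoters (0.289%), and not in these windows of Lce1l, Lce1m and Lce3f. ATAAAA was in 8 of 9 windows (19.1% of all promoters), and CATGTG in 7 of 9 (14.1%), all of Lce1 genes, and outside the set in the windows of Lce1a2 and Lce3b. TTNCNNAA, a loose form of the C/EBP motif, was in the window of Lce3f alone among the 9 and in those of Lce3a, Lce3b and Lce3c (40.7% of all). The AP-1 motif TGANTCA (7.93% of all) and TGACNNNGC, the core of the antioxidant response element (12.5%), were in 0 of the 9 windows. CACCC, a Klf-type motif, was in 4 of 9 (56.7% of all). Motifs were searched on both strands, and these matches describe letters only.

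Some facts about the arrays touch every comparison. Array medians lay between 6.9 and 6.95 on the log2 scale. The array NT 5 had a mean of 14.54 over liver markers, against 6.41 to 6.59 on the other arrays. The signal of the 3' actin probe set minus that of the 5' one, a measure of RNA integrity, ranged in NT from -0.65 to -0.38, on TS arrays from 0.08 to 0.26 and on WB arrays from 5.27 to 5.96. The same measure for Gapdh ranged in NT from -0.77 to -0.48, on TS arrays from -0.62 to -0.31 and on WB arrays from 3.45 to 4.41, so the WB arrays stood apart from both other groups. Means over 15 skeletal muscle markers spanned 12.11 to 13.45 on NT arrays, 10.33 to 10.76 on TS arrays and 7.41 to 8.68 on WB arrays (exact permutation, adjusted p = 0.00313 for TS against NT and for WB against TS). Granular keratinocyte markers, a list that holds keratins such as Krt1 and Krt77 and does not mark the granular layer alone, were all 11 measured. Their means spanned 11.42 to 12.01 on NT arrays, 11.15 to 11.74 on TS arrays and 10.90 to 11.30 on WB arrays. Of the granular markers, Krt77 fell by 8.58 in TS against NT and by 8.98 in WB against NT, which lowers these means. The median difference over the 11 was 0.49 in TS against NT, -0.3 in WB against TS and 0.19 in WB against NT. No marker is at 0, since the lowest value of the table is 2.93. The part of these measures in the results was not tested. In these whole-skin samples fewer cells of a type and less RNA per cell cannot be told apart.

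**Figure D1:**
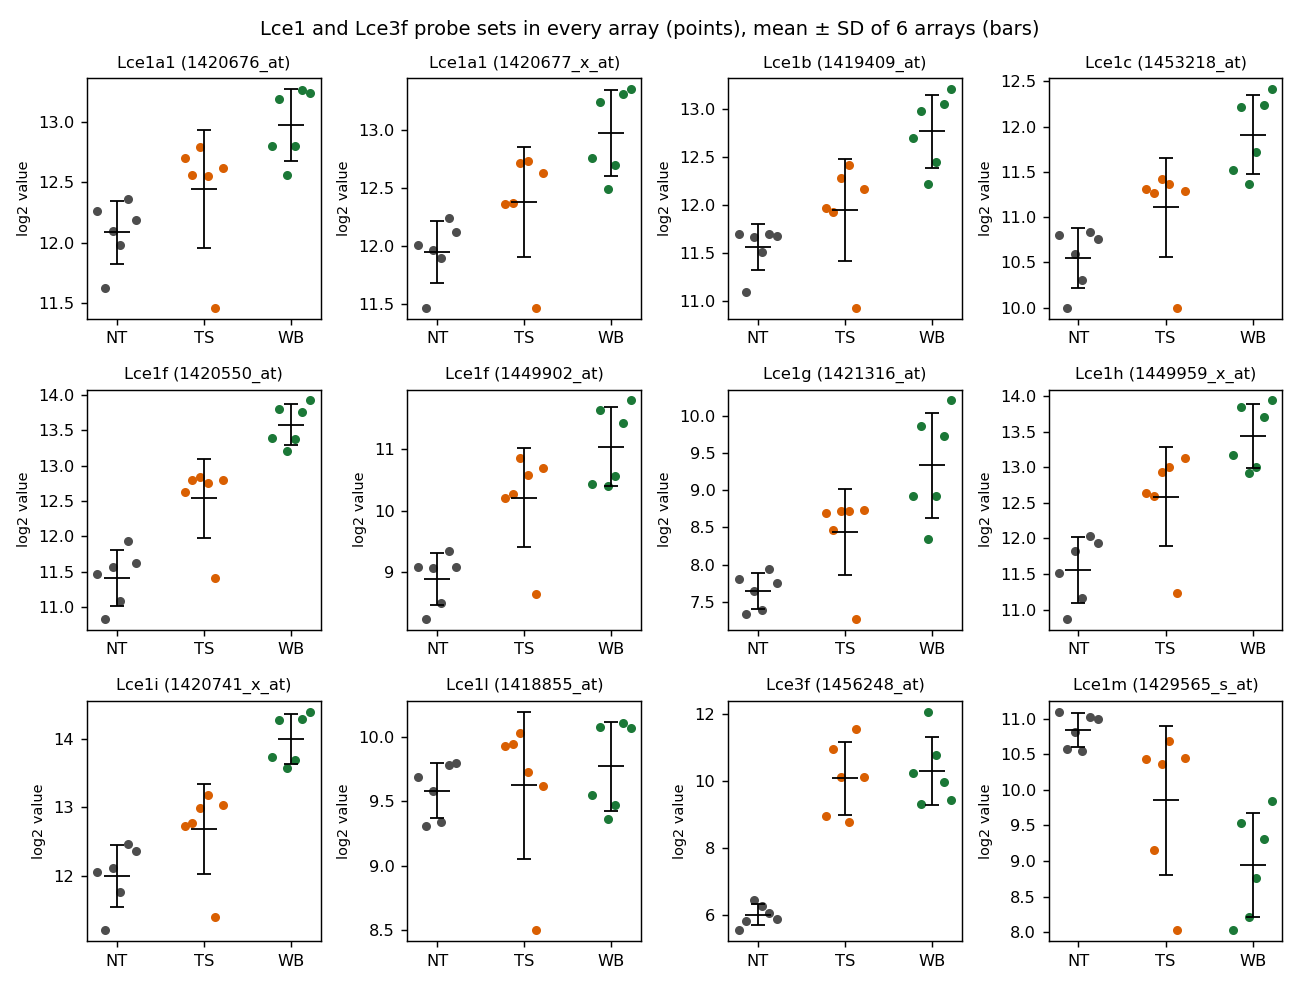
Log2 value of each of the 12 Lce1 and Lce3f probe sets (1 panel each, own vertical scale, in gene order) on every array of NT, TS and WB. Points are arrays, and bars give the mean ± SD of 6 arrays. Lce3f lay at 5.56 to 6.44 in NT and at or above 8.78 in TS and WB, and TS 5 was the lowest TS array for all 11 Lce1 probe sets.

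The comparison of TS with NT asks what repeated stripping does to the envelope genes. Lce3f was low in intact skin and rose on every stripped array, by far more than any Lce1 gene. Lce3f measured 5.56 at lowest, 5.99 in the median and 6.44 at highest in NT (log2). In TS it measured 8.78 at lowest, 10.11 in the median and 11.55 at highest, so the groups did not overlap. The same held for 6.59% of all probe sets, or 2970, all of them among the 11946 that varied. The mean rose from 6.01 ± 0.32 to 10.08 ± 1.08 (SD, n = 6), a log2 difference of 4.07 (SE 0.50, limma adjusted p = 6.19e-05). Its NT mean lies under the array median, and without a background measurement the size of this difference is uncertain. Of the Lce3 genes outside the set, Lce3c rose by 3.08 (SE 0.47, limma adjusted p = 0.000318) and Lce3a by 2.03 (SE 0.59, limma adjusted p = 0.0275). Lce3b differed by 0.55 and did not pass (limma adjusted p = 0.0798).

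Of the 12 probe sets, 4 were called in TS against NT, all higher, at an adjusted p under 0.05 and a difference of at least 0.01. The background is 10.1% of all 45037 probe sets (4.97% higher) and 38.1% of the 11946 that varied, so the share called among the members is near that of varying probe sets. The 3 called Lce1 probe sets were both of Lce1f and the single one of Lce1h. Lce1f (1420550_at) measured 10.83, 11.51 and 11.93 (lowest, median, highest) in NT and 11.41, 12.77 and 12.84 in TS. All TS arrays but TS 5 lay above every NT array, and the mean rose by 1.12 (SE 0.25, limma adjusted p = 0.00489). The second Lce1f probe set (1449902_at) rose by 1.32 (SE 0.37, limma adjusted p = 0.0221). Lce1h measured 10.87, 11.67 and 12.03 in NT and 11.24, 12.79 and 13.13 in TS. It too overlapped through TS 5 and rose by 1.03 (SE 0.31, limma adjusted p = 0.0354). The median difference over the 11 Lce1 probe sets was 0.56, against 0 over all probe sets.

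The other Lce1 genes did not pass. Their differences were 0.36 and 0.43 for the probe sets of Lce1a1, 0.39 for Lce1b, 0.56 for Lce1c, 0.79 for Lce1g and 0.69 for Lce1i, with limma adjusted p from 0.114 (Lce1g) to 0.344 (Lce1b). Lce1l differed by 0.04, with a 95% interval of -0.46 to 0.54. Lce1m was the only member with a lower mean after stripping, 9.85 ± 1.05 against 10.84 ± 0.24 (SD, n = 6), a difference of -0.99 (SE 0.43) that did not pass (limma adjusted p = 0.159). These calls depended on single arrays. Without TS 5, 10 probe sets were called, all higher, among them Lce1a1, Lce1b, Lce1c, Lce1g and Lce1i. Without NT 2, NT 4, TS 3 or TS 6, 2 were called, and without NT 5, the array with liver markers, 4 were called.

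**Figure D2:**
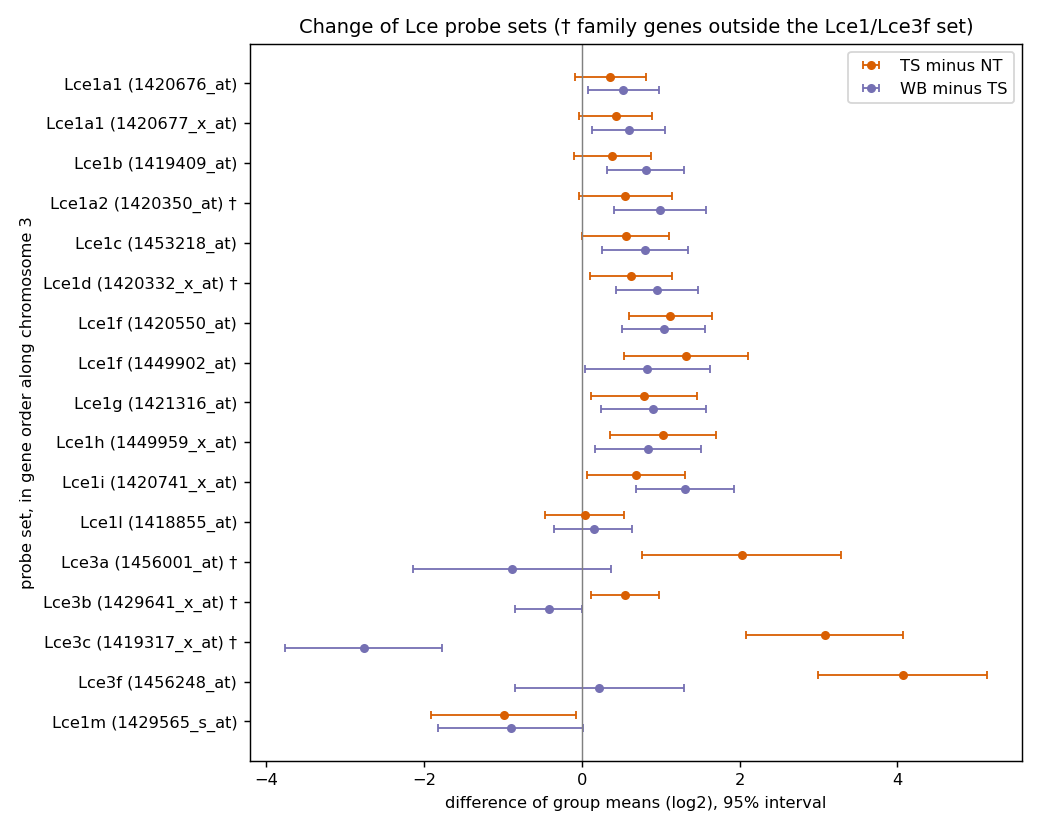
Difference of group means (log2, horizontal axis) with its 95% interval for 17 Lce probe sets, listed in gene order along chromosome 3, for TS minus NT (orange) and WB minus TS (purple). The Lce1 genes from Lce1a1 to Lce1i lie between 0.36 and 1.32 in both comparisons, Lce3f stands at 4.07 in the first and 0.22 in the second, and Lce1m lies below 0 in both.

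Lce3f was then set against each Lce1 probe set by the difference of their log2 values on each array, which compares changes and not levels. After stripping Lce3f had gained on all 11 Lce1 probe sets. Its gain ranged from 2.75 over Lce1f (1449902_at, 95% interval 1.13 to 4.36) to 5.06 over Lce1m (3.14 to 6.98). In all 11 the TS and NT arrays did not overlap, and the two-sided exact permutation p was 0.00216, the smallest that 6 against 6 arrays can give. These 11 values share the Lce3f measurement and are among 33 such comparisons. Lce3f alone did not overlap between TS and NT, so a similar outcome is likely against any probe set that changed little. The share over all probe sets was not computed, and the count shows nothing particular to Lce1.

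The comparison of WB with TS sets stripped skin of mice given the extract against stripped skin of mice not given it. The extract and the actin and Gapdh measures changed together between these groups, so their parts in any difference cannot be told apart. Most Lce1 genes were higher in WB, and Lce3f did not differ beyond its spread. Lce1i measured 11.40, 12.89 and 13.18 (lowest, median, highest) in TS and 13.58, 14.01 and 14.40 in WB. No WB array overlapped a TS array, and the mean rose by 1.31 (SE 0.29, limma adjusted p = 0.00136). Such separation held for 20.6% of all probe sets, or 9266, all of them among the 11946 that varied. Lce1f (1420550_at) measured 13.20, 13.57 and 13.92 in WB, all above the highest TS array at 12.84, and rose by 1.04 (SE 0.25, limma adjusted p = 0.00228). Lce1b measured 10.93, 12.07 and 12.41 in TS and 12.22, 12.83 and 13.20 in WB, and rose by 0.81 (SE 0.23, limma adjusted p = 0.00782). The groups overlapped for Lce1b only through WB 3, which lay below TS 3 and TS 4.

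In all, 8 of the 12 probe sets were called in WB against TS, all of them Lce1 and all higher. The background is 23.6% of all probe sets (12.5% higher) but 88.8% of those that varied, so the count shows nothing particular to the members. The other called probe sets rose by 0.91 (Lce1g), 0.84 (Lce1h), 0.80 (Lce1c), and 0.53 and 0.60 (Lce1a1), with limma adjusted p from 0.0169 to 0.0496. The second probe set of Lce1f differed by 0.83 (limma adjusted p = 0.0824) and Lce1l by 0.15 (95% interval -0.35 to 0.64), neither passing. Lce1m measured 8.03, 10.40 and 10.69 in TS and 8.03, 9.04 and 9.84 in WB. Its mean differed by -0.90 (SE 0.43), which did not pass (limma adjusted p = 0.106). The count was 5 without TS 2, 5 without TS 5, and 4 without WB 2, WB 5 or WB 6. Without TS 5, Lce1m was called lower at -1.27 (limma adjusted p = 0.00621) and 4 Lce1 probe sets were called higher.

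Lce3f measured 9.33, 10.11 and 12.07 in WB, a mean of 10.30 ± 1.02 (SD, n = 6), and every WB array but WB 3 lay within the range of TS. The difference from TS was 0.22 (95% interval -0.85 to 1.30, limma adjusted p = 0.864). Set against the 11 Lce1 probe sets, Lce3f differed between WB and TS by -1.08 (Lce1i) to 1.13 (Lce1m), with exact permutation p from 0.242 to 0.933 and overlap in all 11. The 95% interval was -2.99 to 0.82 for Lce1i, -1.74 to 1.89 for Lce1l and -1.27 to 3.52 for Lce1m, so shifts within these bounds are neither shown nor excluded. Of the Lce3 genes outside the set, Lce3c alone passed in WB against TS, and no test set it against Lce3f. Lce3c measured 9.02, 10.91 and 11.96 in TS and 7.33, 7.50 and 9.23 in WB, and fell by 2.76 (SE 0.47, limma adjusted p = 0.000116). The one WB array of Lce3c above 7.64 was WB 3. Lce3a differed by -0.88 (limma adjusted p = 0.264) and Lce3b by -0.42 (limma adjusted p = 0.11). Lce1a2 and Lce1d, the Lce1 genes outside the set, rose by 0.99 and 0.95 (limma adjusted p = 0.00662 and 0.00407).

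WB against NT shares its arrays with the other comparisons and is not independent of them. Here too the treatment and the actin and Gapdh measures cannot be told apart. Of the 12 probe sets, 11 were called, 10 higher and 1 lower, where 23.7% of all (12.1% higher, 11.6% lower) and 89.3% of varying probe sets were called. The groups did not overlap for these 11. The same held for 21.7% of all probe sets, or 9752, all of them among the 11946 that varied. Neither count shows anything particular to the members. Lce3f rose by 4.29 (SE 0.50, limma adjusted p = 2.15e-06). The Lce1 rises ran from 0.89 (Lce1a1, 1420676_at) to 2.16 (Lce1f, 1420550_at). Lce1m measured 10.54, 10.91 and 11.10 in NT, above every WB array, and fell by 1.90 (SE 0.43, limma adjusted p = 0.00159). Lce1l differed by 0.19 and did not pass (limma adjusted p = 0.608). Without NT 5, 11 were called. Lce3f gained 2.13 to 6.19 on the Lce1 probe sets, with exact permutation p from 0.00216 to 0.00866, and 10 of 11 did not overlap, the exception being Lce1f (1449902_at). Since Lce3f alone did not overlap between WB and NT, this count too shows nothing particular to Lce1.

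**Figure D3:**
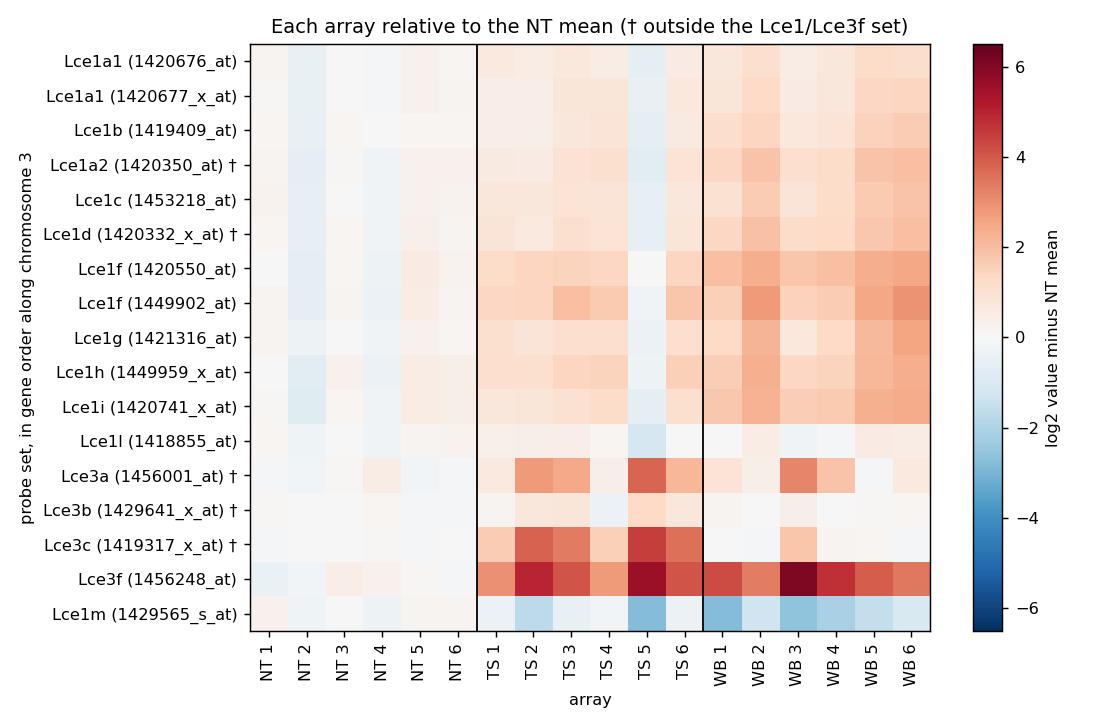
Log2 value of 17 Lce probe sets on each of the 18 arrays minus the NT mean of the same probe set, as colour (red higher, blue lower), in gene order along chromosome 3. On TS 5 Lce1 is pale or blue while Lce3f, at 11.55 against an NT mean of 6.01, is deep red, and on WB arrays Lce1m is blue while the Lce1 probe sets other than Lce1l and Lce1m are red.

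Within WB, arrays with more Lce3f signal had less Lce1 signal, while in TS this rested for most Lce1 genes on TS 4 and TS 5. TS 5 had the highest Lce3f value of TS (11.55) and the lowest value of all 11 Lce1 probe sets, and WB 3 had the highest Lce3f value of WB (12.07). In WB, Pearson's r between Lce3f and the 11 Lce1 probe sets ran from -0.93 (Lce1b) to -0.75 (Lce1m), and Spearman's rho from -0.94 to -0.71, over 6 arrays. The exact permutation p for r was 0.00417 to 0.0806, and for rho 0.0167 to 0.136. Without WB 2 and WB 3, the arrays farthest from the median of Lce3f, r was -0.97 to -0.70. In TS, r ran from -0.88 (Lce1m) to -0.59 (Lce1f, 1420550_at, and Lce1l) and rho from -0.94 to 0.03, with exact permutation p for r of 0.00417 to 0.233 and for rho of 0.0167 to 1. Without TS 4 and TS 5, r in TS was -0.77 to 0.82, and only 5 of 11 were below 0, so for most Lce1 genes the relation rests on those arrays. Lce1m kept -0.77. In NT, r was -0.42 to 0.20, rho -0.49 to 0.26, and exact permutation p 0.394 to 0.964 for r and 0.356 to 1 for rho. These are 33 relations that share Lce3f and the same arrays, and no adjusted p is given for a list chosen with results known. The Lce1 probe sets also moved together (median r of 0.94), so the 11 relations of a group are not separate observations. The share of all varying genes with as strong an r to Lce3f was not computed, so the relation is not shown to be particular to Lce1. Beside these relations, TS 5 and WB 3 had the highest mean of 4 stress keratins in their groups (14.11 and 11.34). They also had the lowest mean of granular markers (11.15 and 10.90). WB 3 had the lowest actin and Gapdh measures of WB (5.27 and 3.45), while TS 5 was not the lowest of TS in either. The part of these measures in the relation was not tested.

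**Figure D4:**
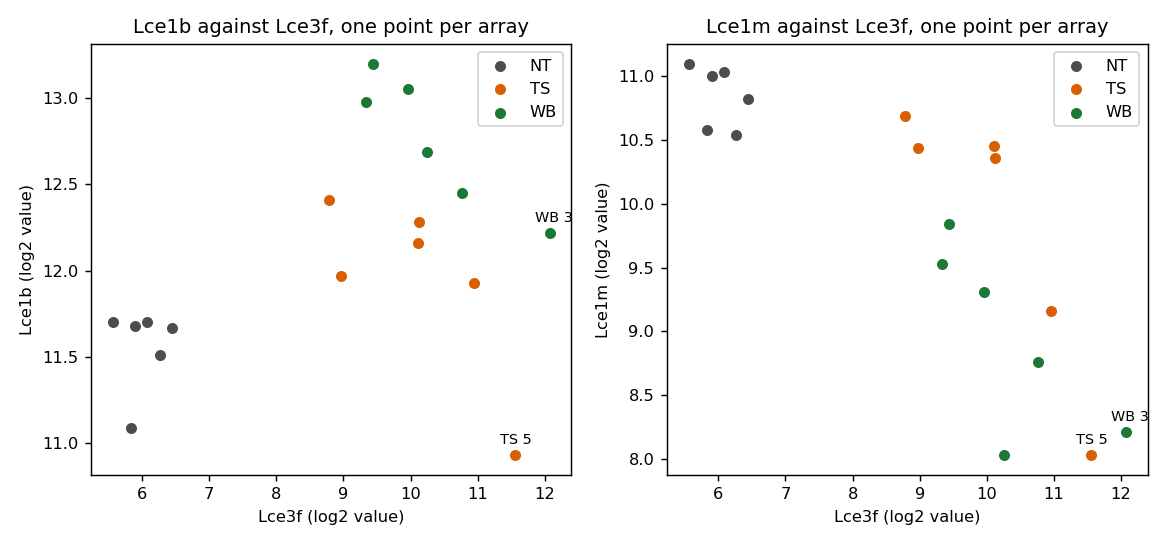
Log2 value of Lce1b (left) and Lce1m (right) against Lce3f, 1 point per array, coloured by group. In WB both fall as Lce3f rises (r of -0.93 and -0.75), in NT the points form one patch, and TS 5 and WB 3 mark the high end of Lce3f.

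The Lce1 probe sets moved together. Over deviations from the group means on 18 arrays, Pearson's r between Lce1 probe sets was 0.79 to 0.98 with a median of 0.94 (55 pairs), given as a description. Lce1m, whose group means went the other way, still had r of 0.79 to 0.90 with the other Lce1 probe sets. Probe sets with x_at or s_at names can match transcripts of near-identical relatives, so part of this likeness is uncertain. In the set these are Lce1a1 1420677_x_at, Lce1h, Lce1i and Lce1m, and outside it those of Lce1d, Lce3b and Lce3c. Among 6832 varying genes, those most like the mean of Lce1 were Lce1d (r of 0.99), Lce1a2 (0.99), Xkrx (0.98), Kprp (0.98) and Lor (0.97). Lor encodes loricrin, the main protein of the envelope, and Kprp a proline-rich keratinocyte protein. Those most like Lce3f were Lce3a (0.94), Lce3c (0.91), Nup37, a nuclear pore protein, Hsp90aa1, an inducible chaperone, and Nap1l1, a histone chaperone (0.90 each). The likeness is of deviations from group means, and the group means themselves differed. Hsp90aa1 differed between TS and NT by 0.12 and Nap1l1 by -0.02, neither passing (limma adjusted p = 0.526 and 1), where Lce3f rose by 4.07. Loricrin differed by 0.51 in TS against NT and by 0.37 in WB against TS, neither passing (limma adjusted p = 0.169 and 0.215), and rose by 0.89 in WB against NT (limma adjusted p = 0.00397).

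Other envelope genes were read from a list of 30 on the array, 28 of them varying. In TS against NT 18 rose and 2 fell, with a median difference of 0.93 against 0 over all varying genes. The background for list counts is the share of varying probe sets called, 38.1% in TS against NT, 88.8% in WB against TS and 89.3% in WB against NT. It covers all varying probe sets, while the lists use the brightest probe set per gene, for which no share was computed. The strongest by p were Rptn, a filament-binding envelope protein (log2 difference 8.20), Dsc1, a desmosomal cadherin (2.39), Sprr2d, a small proline-rich envelope protein (4.63), and Tgm1, the transglutaminase that cross-links the envelope (1.23). Rptn measured 5.09 on average in NT, under the array median, so its size is uncertain. In WB against TS 7 rose and 13 fell, with a median of -0.56 against 0.16, and the 88.8% background leaves nothing particular in the number called. Cnfn (cornifelin) fell by 3.45, and Asprv1, a protease that acts on filaggrin, fell by 2.47. Tgm1 fell by 1.89 and Ppl (periplakin) fell by 1.88. In WB against NT 12 rose and 7 fell, with a median of 0.43 against 0.07. The Lce1 probe sets had a median of 0.81 in WB against TS where this list had -0.56, a description that rests on arrays with the actin and Gapdh values given before.

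Of 22 regulators of envelope genes on the array, 16 varying, 10 rose and 0 fell in TS against NT, where 38.1% of varying probe sets were called. They were led by p by Ovol1 (log2 difference 1.04), Grhl3 (0.92), Tfap2c (1.32) and Klf4 (0.73), transcription factors of epidermal differentiation. In WB against TS 10 rose and 5 fell, a share near the 88.8% of varying probe sets called. Cebpb, whose protein acts in keratinocyte differentiation, rose by 0.79 and Trp63, the master factor of stratified epithelia, by 1.35, while Cebpa fell by 1.91 and Nfe2l2, the oxidative stress factor, fell by 0.94. In WB against NT 11 rose and 3 fell. Among 11 granular markers 6 rose and 2 fell in TS against NT, and 1 rose and 4 fell in WB against TS. The backgrounds of 38.1% and 88.8% apply here too, and the second count lies below its background. In TS against NT Krt77 fell by 8.58, while Casp14, the caspase of cornification, rose by 2.35, Krt1 by 1.34 and Flg by 1.05. In WB against TS Krtdap fell by 0.95, Sbsn by 0.75, Dmkn by 0.57 and Casp14 by 2.09, while Flg rose by 0.61. Of 4 stress keratins, 3 rose in TS against NT, Krt6b by 6.93, Krt16 by 4.52 and Krt6a by 1.41. In WB against TS 3 fell. Krt17 fell by 4.40, Krt16 fell by 5.40 and Krt6a fell by 2.34. Krt6b differed by 0.15 (limma adjusted p = 0.945) and Lce3f by 0.22, neither passing. The adjusted p of every gene named as rising or falling in these lists was at most 0.00442 (limma). The counts hold all genes with an adjusted p under 0.05.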

How the data were processed

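RNA of dorsal skin, extracted with Isogen and RNeasy columns and labelled from 100 ng per the labels' protocols, was hybridised to Affymetrix mouse arrays. The deposited table holds the authors' values for 45101 probe sets and 18 arrays, read as log2 from their range (2.93 to 19.04). The base of the logarithm, the summarising and the normalization are not given in the sources used here. Scanner files were not used here. The 64 control probe sets were left out. Symbols come from the platform annotation: 34945 tested probe sets have 1, 932 several (12 of these the same symbol repeated) and 9160 none, and none was named from an entry with several.

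All 18 arrays were fitted together with limma 3.58.1 in R 4.3.3 (lmFit, eBayes, two-sided, no covariate), with Benjamini-Hochberg adjustment over 45037 probe sets, and a call needed an adjusted p under 0.05 and a difference of at least 0.01. Array measures and Lce3f minus Lce1 were tested by exact permutation in scipy 1.17.1. Lists use the probe set with the highest mean per gene. The members and lists were chosen with earlier results of these data known. Genes named are all members, the other Lce genes, the 4 called genes with the smallest p per list and comparison (a part is printed), and the 5 most like Lce3f and the mean of Lce1. On simulated data for TS against NT (45037 probe sets) 61 of 100 changes of 0.5 and 97 of 100 of 2 were recovered, with 3 false calls. Replicates are called biological in the labels; the number of arrays limits the precision. Deviations of same-numbered arrays correlated weakly (r of -0.27 to 0.14 over 18 pairs). Alternatives were quantile normalization, median centring, filters, array weights, a replicate block, a trended prior, 12 arrays alone and leaving out each array.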

Additional observations from a re-analysis of the deposited data

Results flagged for a closer look

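Of 36 sets of 6 arrays (12 probe sets in 3 groups), 11 held 1 array far from the others by Dixon's criterion at the 95% level, which chance gives in about 1 of 20. Of the 11, 10 were the array TS 5, flagged as low for every Lce1 probe set except that of Lce1m. Its log2 values there were 8.50 for Lce1l (nearest array 9.62), 10.93 for Lce1b (11.93), 11.41 and 8.64 for the Lce1f probe sets (12.63 and 10.21), and 11.46 and 11.47 for those of Lce1a1 (12.55 and 12.36). They were 11.40 for Lce1i (12.73), 7.27 for Lce1g (8.46), 11.24 for Lce1h (12.60) and 10 for Lce1c (11.27). Lce1m was lowest on TS 5 too, at 8.03 (nearest array 9.16), without meeting the criterion. On this array Lce3f was the highest of TS at 11.55. The remaining one was NT 2, low for Lce1b at 11.09 against 11.51 on the nearest array. These probe sets share the array and the family, so the 10 are not separate observations.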

How the results depend on the processing

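Lce3f in TS against NT and in WB against NT kept direction and call under every alternative run for single probe sets. The 11 differences of Lce3f from Lce1 in those comparisons did so under those run for them, which were quantile normalization, the replicate block and leaving out each array. The number of members called in TS against NT was 8 with array weights, 2 with the replicate block and 2 to 10 leaving out each array. In WB against TS it was 4 with the replicate block, 4 on the 12 arrays of the comparison alone, 9 with quantile normalization or median centring, 10 with varying probe sets alone and 4 to 8 leaving out each array. Lce1m was there called lower with array weights (-1.10, limma adjusted p = 0.0234) and with varying probe sets alone (-0.90, limma adjusted p = 0.0473). Whether replicate numbers pair the arrays was not settled, since 6 of 18 pairs correlated best with their own number. The block lost Lce1f (1449902_at) and Lce1h in TS against NT, and Lce1a1, Lce1g and Lce1h in WB against TS. With quantile normalization 39795 probe sets were called in WB against TS (88.1% higher, against 53.1% of 10612 as deposited) and 41328 in WB against NT (88.3% higher, against 51.2% of 10667). Median centring called 43993 in each (88.8% and 88.3% higher), since it shifts the constant probe sets. In TS against NT quantile normalization moved the share higher from 49.2% to 68.8%. No member changed direction with the scaling. Leaving out each array turned some small differences: Lce1l ran from -0.04 to 0.27 in TS against NT and from -0.08 to 0.23 in WB against TS, and Lce3f from -0.13 to 0.52 in WB against TS. In WB against TS, Lce3f minus Lce1l ran from -0.36 to 0.60, minus Lce1a1 from -0.75 to 0.18 and -0.82 to 0.10, and minus Lce1f (1449902_at) from -1.09 to 0. The cause of these changes was not tested. The table holds no background, which limits the size of differences of dim probe sets.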
